A study of Mus musculus with 6 samples.

Results

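The 8 genes described here encode core parts of the machinery that fuses synaptic vesicles with the neuronal membrane. They are the SNARE genes Snap25, Snap47, Stx1a, Vamp1 and Vamp2, the calcium sensor gene Syt1 and the complexin genes Cplx1 and Cplx2. They were chosen by name, and every isoform listed under one of these symbols that shares exons with the gene on its own strand (class codes =, j, c, o and e of the transcript table) was counted to it. This gave 8 of 54787 genes and 50 of 155855 isoforms. Of the 50 isoforms, 23 were annotated as protein coding, 7 as retained introns, 6 as processed transcripts and 1 as subject to nonsense-mediated decay, and 13 were assembled from the reads and carry no type. All 8 genes and 40 of the isoforms reached the mean of 0.5 FPKM that was required for a test.

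The RNA came from the prefrontal cortex of male C57BL/6 mice. Mice of the PS_high group (n = 3 samples) received polystyrene nanoparticles (PS NPs) at 50 mg/kg body weight by oral gavage every day for 6 months, and mice of the control group (n = 3 samples) received water instead (0 mg/kg). Gavage began at an age of 5 weeks, the age at sampling was 30 weeks, and the labels name no genotype, other agent or pooling of animals for either group. Libraries were made from total RNA without ribosomal RNA, so linear transcripts and circular RNAs (circRNAs) could be counted in the same samples.

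SNARE proteins work by zipping together: Vamp2 or Vamp1 on the vesicle pairs with Stx1a and Snap25 on the plasma membrane, and the resulting bundle of helices pulls the membranes into contact. Syt1 binds calcium that enters with an action potential and triggers the last step, while complexins clamp and then assist the partly assembled complex. In the cortex these proteins sit in presynaptic terminals of both excitatory and inhibitory neurons, and their transcripts are among the most abundant neuronal messages.

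Each library held between 53344395 and 66004386 estimated counts of linear transcripts, and back-splice reads, which mark circRNAs, numbered 15658 to 19957. The library PS_high 1 stood apart on the first principal component of gene expression (score -57, against -14.4 to 28.3 for the other 5 libraries). Neuronal identity was visible in all libraries: the summed level of 6 general neuronal markers lay between 560.1 and 645.8 FPKM in control and between 590.0 and 645.2 FPKM in PS_high, and that of 8 markers of excitatory neurons between 266.0 and 354.0 FPKM and between 303.7 and 345.2 FPKM. The excitatory vesicle transporter gene Slc17a7 was at 153.7, 144 and 197.9 FPKM in control and at 86.58, 177.5 and 183.2 FPKM in PS_high, lowest in PS_high 1. Other excitatory markers went the other way there: Camk2a (144.8 FPKM) and Neurod6 (14.11 FPKM) were at their highest in PS_high 1. The summed excitatory list was at 303.7 FPKM in that library. The neuronal splicing factor gene Rbfox3 ranged from 22.16 to 43.24 FPKM. Markers of choroid plexus and ependyma varied most, with 6.051, 238.4 and 121.8 FPKM in control and 10.55, 468.6 and 298.0 FPKM in PS_high for 5 genes, so control 1 and PS_high 1 held little of them. No tested member of the 12 marker lists passed in edgeR between the groups, and no marker was at 0 in every library. The part of these differences between libraries in the results below was not tested.

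Several results below give the listed start of a transcript. The sequence before the annotated start is shown for the 3 genes whose main isoforms are listed with different starts. Starts of assembled isoforms were estimated from the reads, and no transcription start was measured. Whether a change of isoform is a change of start was not tested. The letters are the 250 bases upstream of the RefSeq transcription start on the gene's own strand, from assembly GRCm38.p6, and capitals mark a GC box (GGGCGG, or CCGCCC on the opposite strand), the binding motif of Sp1-type factors.
Cplx1, chr5:108550028-108550277, minus strand: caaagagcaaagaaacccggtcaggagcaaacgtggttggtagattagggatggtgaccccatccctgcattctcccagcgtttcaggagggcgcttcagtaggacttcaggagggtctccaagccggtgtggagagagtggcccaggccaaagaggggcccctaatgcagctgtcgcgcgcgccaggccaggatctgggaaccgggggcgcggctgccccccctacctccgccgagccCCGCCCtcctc
Stx1a, chr5:135023232-135023481, plus strand: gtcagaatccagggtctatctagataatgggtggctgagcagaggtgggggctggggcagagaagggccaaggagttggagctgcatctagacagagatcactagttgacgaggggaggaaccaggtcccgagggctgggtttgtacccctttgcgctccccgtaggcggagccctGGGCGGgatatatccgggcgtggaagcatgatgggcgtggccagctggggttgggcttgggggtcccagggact
Cplx2, chr13:54302306-54302555, plus strand: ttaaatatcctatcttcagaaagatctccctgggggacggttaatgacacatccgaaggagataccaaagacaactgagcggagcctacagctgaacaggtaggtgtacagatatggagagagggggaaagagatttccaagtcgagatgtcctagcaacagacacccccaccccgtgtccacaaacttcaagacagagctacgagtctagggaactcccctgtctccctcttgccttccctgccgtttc
The Cplx1 and Stx1a windows each held 1 GC box and the Cplx2 window held 0, where 32.7% of 32851 windows of this length held at least 1. None of the 3 held a TATA box (TATAAA, in 12.4% of windows), a cAMP response element (TGACGTCA, 1.55%) or an E-box (CACGTG, 6.02%), searched on both strands. RefSeq windows were matched for 6 of the 8 genes, and Snap25 and Vamp2 were not among them.

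Across the 8 genes, Snap25 stood at a higher level in every PS_high library than in any control library, and the other 7 had overlapping groups. On FPKM, which divides reads by transcript length and so allows genes to be compared, the order in control was Syt1 (288.1 ± 33.13 FPKM, SD, n = 3), Vamp2 (228.1 ± 35.58), Snap25 (151.5 ± 17.07), Cplx2 (80.44 ± 11.22), Snap47 (78.78 ± 4.591), Cplx1 (53.17 ± 48.3), Vamp1 (27.81 ± 5.269) and Stx1a (19.68 ± 3.061). Neighbours in that order whose ranges overlapped were Syt1 with Vamp2, Cplx2 with Snap47, Snap47 with Cplx1, and Cplx1 with Vamp1. In PS_high, Snap25 came first with 463.9 ± 129.1 FPKM, followed by Syt1 with 333.2 ± 40.06 FPKM and Vamp2 with 231.2 ± 21.2 FPKM, and the ranges of Snap25 and Syt1 overlapped. Stx1a was again last, with 16.76 ± 4.304 FPKM.

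**Figure D1:**
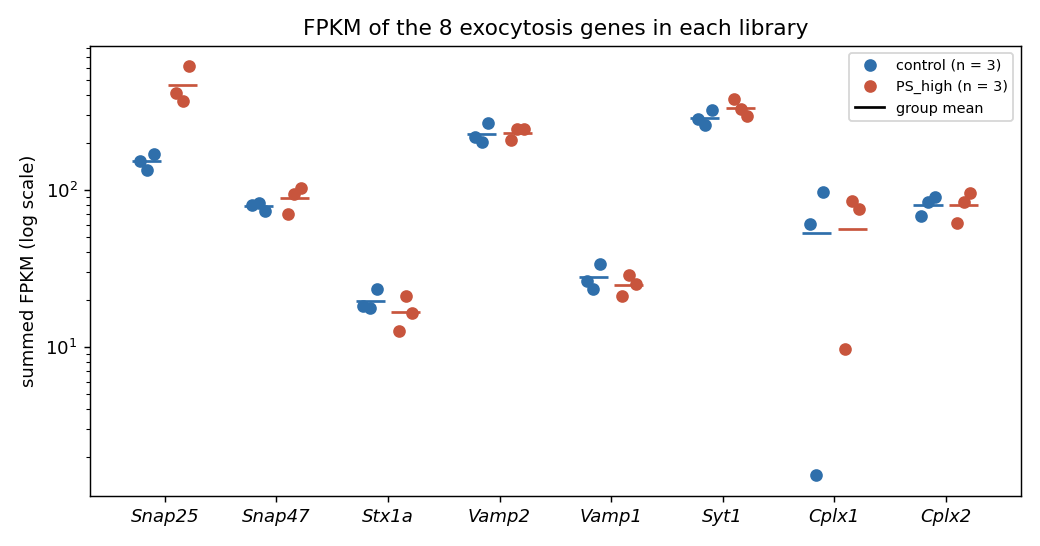
Summed FPKM of each of the 8 genes on a log axis, with 1 point per library and a bar at the group mean (control blue, PS_high red, n = 3 each). Snap25 is the gene whose groups do not overlap (134.4 to 168.6 against 368.7 to 610.8 FPKM), and Cplx1 has 1 very low library in each group (1.521 FPKM in control 2 and 9.697 FPKM in PS_high 1).

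In edgeR's quasi-likelihood test with Benjamini-Hochberg adjustment, 0 of the 8 genes passed an adjusted p of 0.05, where 5 of all 20272 genes tested passed (0.0247%), 2 of them higher (0.00987%). At an unadjusted p under 0.05 there was 1 of the 8, Snap25, against 530 of all genes (2.61%). DESeq2 called 1 of the 8, again Snap25, against 47 of all genes (0.232%), 27 of them higher (0.133%). Limma on log2(FPKM + 0.1) called 0, as it did for all genes (0%), with 1 of the 8 and 577 of all genes (2.85%) at an unadjusted p under 0.05. Groups of depth-scaled counts (CPM) that did not overlap were found in 1 of the 8 genes and in 1438 of all genes (7.09%), 760 of which were lower in PS_high (3.75%). On FPKM the same count was 1 of the 8 and 1421 of all genes (7.01%), 559 of which were higher (2.76%). The median log2 fold change of the 8 was 0.047 on counts, beside -0.007 over all genes tested, and 6 of the 8 lay above 0 (5 of the 8 on FPKM), beside 48.5% of all genes tested on counts. In tissue RNA of this kind, fewer cells of a type and less RNA per cell cannot be told apart.

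**Figure D2:**
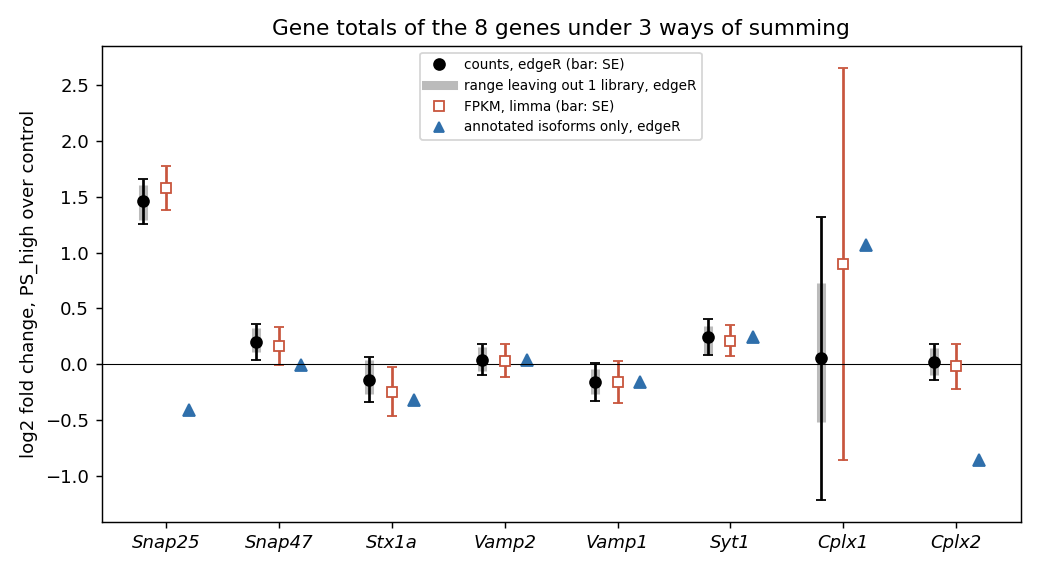
Log2 fold change of PS_high over control for each of the 8 gene totals: circles from edgeR on counts and squares from limma on FPKM, both with bars of 1 SE, grey bars for the range of edgeR values when 1 library is left out, and triangles for edgeR on annotated isoforms alone. Snap25 lies at 1.46 and 1.58 with all isoforms and at -0.41 with annotated isoforms alone, and the bars of Cplx1 span more than those of any other gene shown. The annotated sum of Snap25 leaves out assembled isoforms with 0 counts in every control, so its sign is no test of the gene total.

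Snap25, the plasma membrane SNARE that gives 2 of the helices of the fusion complex, lies on the plus strand of chromosome 2 (136713453 to 136782428, coordinates of the deposited table). Its gene total was 596.6, 398.5 and 497.2 CPM in control and 1259, 1172 and 1673 CPM in PS_high. All 3 PS_high libraries were thus above all 3 controls, as were the PS_high libraries of 678 of all genes tested (3.34%). The log2 fold change was 1.46 (SE 0.2; 2.75-fold), with an unadjusted p of 9.56e-05 and an adjusted p of 0.161 in edgeR, which misses the threshold, and an adjusted p of 1.05e-05 in DESeq2. On FPKM the libraries read 151.6, 134.4 and 168.6 in control and 412.2, 368.7 and 610.8 in PS_high, with a log2 fold change of 1.58 (SE 0.2) and an adjusted p of 0.203 in limma. Leaving out PS_high 1, the library that stands apart, gave a log2 fold change of 1.53 and an adjusted p of 0.168 in edgeR.

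The higher Snap25 total was held by assembled isoforms that differed from library to library. The isoform MSTRG.22897.2 (9 exons, 2083 bases) had 38368 estimated counts in PS_high 1 and 0 in every other library. MSTRG.22897.5 (9 exons, 2049 bases), named here after its values were seen, had 35133 counts in PS_high 2 alone, and MSTRG.22897.4 (9 exons, 2057 bases) had 69442 counts in PS_high 3 alone. These isoforms made up 65.27%, 70.04% and 82.93% of the Snap25 counts of their libraries, or 821.6, 820.5 and 1388 CPM. Their unadjusted p in edgeR was 0.125 to 0.126, with 1 library each. Without them the Snap25 total was 596.6, 398.5 and 497.2 CPM in control and 437.2, 351.1 and 285.6 CPM in PS_high, and the groups overlapped. As these isoforms had 0 counts in every control, leaving them out could only lower the PS_high totals. Reads that fit several isoforms are divided among them by estimation, so reads of shared exons stay in the control totals under other isoforms. The remainder is therefore no test of whether the gene total differed.

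The remaining Snap25 isoforms also changed place between libraries of the same group. ENSMUST00000028727, an annotated coding isoform of 8 exons and 2116 bases, had 2545, 13083 and 18797 counts in the controls and 6488, 5 and 806 in PS_high. MSTRG.22897.6, an assembled isoform of 8 exons and 2274 bases, had 21392, 315 and 1745 counts in the controls and 103, 12325 and 653 in PS_high, so it was the leading isoform of control 1 and held 24.57% of PS_high 2. ENSMUST00000028727 was the higher of this pair in control 2, control 3 and PS_high 1, and in PS_high 3 both were low. The short coding isoform ENSMUST00000110098 (8 exons, 1014 bases) had 91, 2856 and 3033 counts in the controls and 9063, 225 and 9730 in PS_high. Steadier values came from the retained-intron transcript ENSMUST00000125486 (4880 bases), with 5292, 3729 and 3709 counts in the controls and 4761, 2476 and 3101 in PS_high. Both of these were named after their values were seen.

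With annotated isoforms alone, the Snap25 log2 fold change was -0.41 on counts and -0.39 on FPKM, both with an adjusted p of 1 (edgeR and limma). This sum leaves out the assembled isoforms above that had 0 counts in every control, and MSTRG.22897.6 as well. Like the remainder above, it is therefore no test of the direction of the gene total. Across the genome, isoforms tested that had at least 1000 counts in 1 library and none in the other 5 were 217 of 12168 assembled ones (1.783%) and 158 of 38380 annotated ones (0.4117%). Genes with over 50% of a library's counts in isoforms seen in that library alone numbered 27 to 48 per library among 7480 genes with a mean of at least 1000 counts. Snap25 was the 1 gene of these 7480 for which this held in every PS_high library, and 0 genes had it in every control library. That count was made after the Snap25 isoforms had been seen, and it carries no test.

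**Figure D3:**
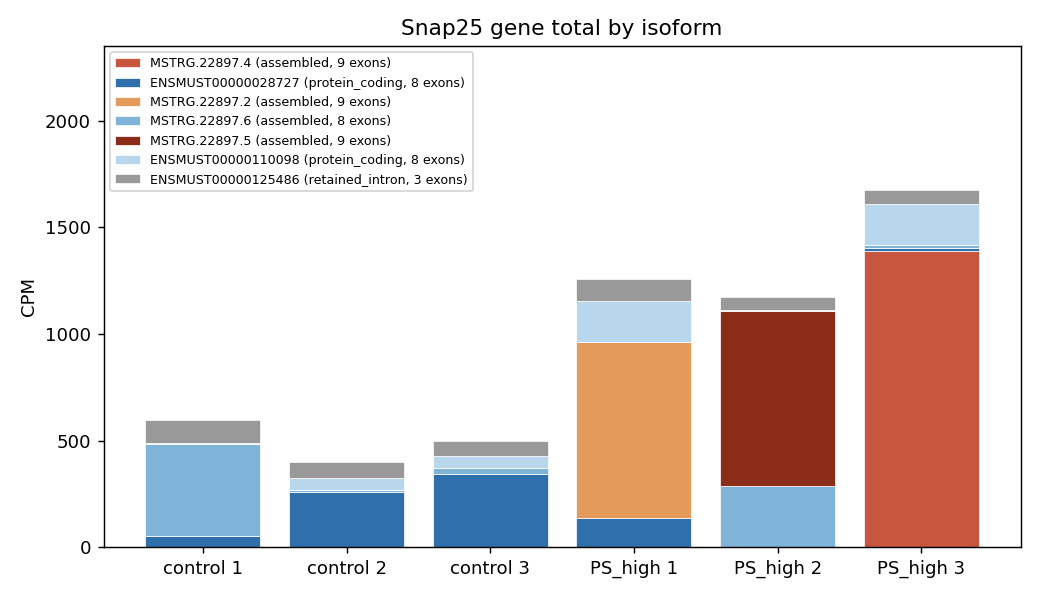
Snap25 gene total in CPM for each library, stacked by isoform, with the annotated type and exon number in the legend. The top of each bar rises from 398.5 to 596.6 CPM in control to 1172 to 1673 CPM in PS_high, and the added height in each PS_high library is a different 9-exon assembled isoform.

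Other transcripts of the Snap25 locus were left out of the gene total. Those inside its introns on the opposite strand were at 188.8, 133.9 and 113.0 CPM in control. In PS_high they were at 150.6, 99.63 and 93.78 CPM, and the groups overlapped. MSTRG.22901.1, on the same strand but beyond the gene, had 1773, 1858 and 1409 counts in the controls and 1958, 1275 and 1303 in PS_high. The pseudogene Gm14053 was the 1 other entry within the span and had 143 to 170 counts in the controls and 93 to 117 in PS_high. The counts of MSTRG.22901.1 and Gm14053 are not scaled to library depth, so no difference between the groups is read from them. Taking ratios within a library, Snap25 over Syt1 on FPKM was 0.538, 0.52 and 0.521 in control and 1.1, 1.13 and 2.06 in PS_high, and Snap25 over Vamp2 was 0.702, 0.672 and 0.629 in control and 1.99, 1.52 and 2.5 in PS_high. Control libraries were within a narrow band of each other in both ratios, while PS_high 3 was the highest. Both ratios use the Snap25 total over all isoforms, so they add nothing independent of that total. Annotated Snap25 isoforms alone summed to 30.57, 132.6 and 158.9 FPKM in control and 170.1, 11.56 and 145.1 FPKM in PS_high, with overlapping groups.

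Stx1a, the syntaxin that anchors the complex in the plasma membrane, lies on the plus strand of chromosome 5 (135023482 to 135051100). Its total was 62.94, 57.37 and 73.75 CPM in control and 43.7, 68.1 and 63.84 CPM in PS_high. The lowest library was PS_high 1, the groups overlapped, and the log2 fold change of -0.14 (SE 0.2) did not pass in edgeR (adjusted p of 1). Without PS_high 1 it was 0.04.

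The makeup of Stx1a by isoform differed more than its total. The main coding isoform ENSMUST00000005509 (10 exons, 2162 bases), which starts at the RefSeq start itself, held 78.34%, 85.58% and 91.52% of the Stx1a counts in the controls and 26.7%, 94.55% and 28.51% in PS_high. PS_high 2 thus looked like the controls, and PS_high 1 and PS_high 3 did not. In PS_high 1 the retained-intron transcript ENSMUST00000156626, which starts 17578 bases downstream, held 41.5% (847 counts, against 57 to 104 in control). In PS_high 3 the assembled isoform MSTRG.31265.4, which starts 11249 bases downstream, held 43.69% (1396 counts, against 191 to 275 in control).

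ENSMUST00000150838, a Stx1a transcript whose annotated type is nonsense-mediated decay, had 0 counts in all 3 controls and 300, 13 and 379 in PS_high. Its edgeR p was 0.0152 unadjusted and 1 adjusted, and its adjusted p in DESeq2 was 4.53e-06. The start of this transcript is 78 bases downstream of the RefSeq start, and its length of 2167 bases is close to that of the main coding isoform. Reads that fit both are divided between them by estimation.

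Snap47, a broadly expressed relative of Snap25 that can form SNARE complexes, lies on the minus strand of chromosome 11 (59407134 to 59451186). Its total was 239.6, 223.7 and 195.0 CPM in control and 212.4, 262.9 and 283.6 CPM in PS_high, with overlapping groups and a log2 fold change of 0.2 (SE 0.16; edgeR adjusted p of 1). The coding isoform ENSMUST00000010038 (1896 bases) held 72.33% to 84.9% of the counts in control, and 31.0%, 86.57% and 73.86% in PS_high. In PS_high 1 the assembled isoforms MSTRG.5990.3 (35.34%) and MSTRG.5990.1 (30.59%) held most of the rest. MSTRG.5990.3 is within 3 bases of the coding isoform in length (1899 bases) and begins at the same base. The total of Snap47 in that library was the lowest of the 6 on FPKM (69.8, against 73.6 to 103.1).

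Vamp2, the main vesicle SNARE of the forebrain, was the steadiest of the 8 genes in isoform makeup. It lies on the plus strand of chromosome 11 (69088490 to 69092384), and its total was 742.6, 637.0 and 848.9 CPM in control and 737.9, 779.4 and 777.8 CPM in PS_high. The log2 fold change was 0.04 (SE 0.14; edgeR adjusted p of 1), and the 3 PS_high libraries lay inside the range of the controls. The coding isoform ENSMUST00000021273 (2205 bases) held 98.99% to 99.46% of the counts in every library.

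Vamp1, its relative with a larger role in brain stem and spinal cord, lies on the plus strand of chromosome 6 (125215551 to 125245964). Its total was 119.2, 98.92 and 137.6 CPM in control and 96.64, 117.6 and 104.9 CPM in PS_high. The groups overlapped, with a log2 fold change of -0.16 (SE 0.17; edgeR adjusted p of 1). ENSMUST00000032487, the main coding isoform, held 75.79% to 87.25% in control and 79.13% to 82.66% in PS_high, and ENSMUST00000100942 held 4.883% to 13.1% and 7.91% to 11.2%. On FPKM, the ratio of Vamp2 to Vamp1 was 8.19, 8.55 and 7.97 in control and 9.88, 8.43 and 9.78 in PS_high, so the vesicle SNAREs kept a similar proportion in all libraries and the groups overlapped.

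Syt1, the calcium sensor of fast release, is the longest of the 8 genes (minus strand of chromosome 10, 108497650 to 109010982) and had the most counts in control. Its total was 1604, 1381 and 1697 CPM in control and 2204, 1735 and 1572 CPM in PS_high. The highest value was that of PS_high 1, the groups overlapped, and the log2 fold change was 0.24 (SE 0.16; edgeR adjusted p of 1). The assembled isoform MSTRG.4630.3 (3398 bases) held 66.13% to 68.62% of the counts in the 6 libraries and the coding isoform ENSMUST00000064054 (4745 bases) held 26.44% to 32.11%. Both begin within 13 bases of the first of 2 RefSeq starts of the gene (109010975), and upstream of the other (109009111).

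Relative to its mean, Cplx1 had the widest spread of the 8 genes within each group (coefficient of variation on FPKM 90.8% in control and 72.3% in PS_high). It encodes a complexin of fast central synapses and lies on the minus strand of chromosome 5 (108518554 to 108550024). Its total was 215.0, 5.005 and 309.4 CPM in control and 34.71, 274.2 and 239.6 CPM in PS_high. Control 2 and PS_high 1 were far below the other libraries, and the groups overlapped, with a log2 fold change of 0.05 (SE 1.27; edgeR adjusted p of 1). That value ranged from -0.52 without control 2 to 0.73 without control 3, and on FPKM it was 0.9 (SE 1.76) in limma. The summed general neuronal markers in these 2 libraries were 608.3 and 609.6 FPKM, inside the range of the other 4 libraries. Single markers of that list went both ways in PS_high 1. Tubb3 (21.06 FPKM) and Eno2 (97.89 FPKM) were at their lowest there and Snhg11 (264.0 FPKM) at its highest, with Rbfox3, Map2 and Nefl in between. Why Cplx1 was low in these libraries was not tested. No transcript of another gene overlaps the span of Cplx1, and an opposite-strand transcript listed under Cplx1 had 44 counts in control 1 and 0 elsewhere.

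Low values in single libraries were uncommon but not limited to Cplx1. Of 7542 genes with a mean of at least 20 CPM, 159 (2.11%) fell below 0.25 of their own median in at least 1 library, 63 of them in PS_high 1 and 31 in control 2. Cplx1 was the 1 gene of the 8 that did so, in control 2 (5.005 CPM) and in PS_high 1 (34.71 CPM). Genes that fell as far as Cplx1, or in more than 1 library, were not counted.

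Which isoform carried Cplx1 also differed. The assembled isoform MSTRG.30553.1 (2237 bases), which starts 550 bases downstream of the RefSeq start, had 10565, 251 and 2696 counts in the controls and 2, 10 and 2 in PS_high. It held 100%, 100% and 15.88% of the Cplx1 counts in the controls and 0.1234%, 0.08517% and 0.01668% in PS_high. The annotated coding isoform ENSMUST00000046892 (2189 bases), which starts 3 bases downstream of the RefSeq start, had 0, 0 and 14281 counts in the controls and 1619, 11731 and 11988 in PS_high. Control 3 thus resembled the PS_high libraries in its leading isoform, but kept a share of MSTRG.30553.1 that was above theirs.

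The MSTRG.30553.1 log2 fold change was -9.68 (SE 2.02), with an unadjusted p of 0.00461 and an adjusted p of 1 in edgeR, and an adjusted p of 1.03e-10 in DESeq2. Over the other settings tried, the adjusted p was 0.451 to 1. Its groups did not overlap, and groups that did not overlap in this direction were found for 2228 of the 50548 isoforms tested (4.41%). The window printed above for Cplx1 lies directly before the coding isoform, not directly before MSTRG.30553.1.

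Cplx2, the second complexin of the forebrain, lies on the plus strand of chromosome 13 (54302035 to 54383917) and had none of the low libraries of Cplx1. Its total was 542.9, 622.1 and 655.9 CPM in control and 507.2, 627.0 and 705.8 CPM in PS_high, with a log2 fold change of 0.02 (SE 0.16; edgeR adjusted p of 1). The ratio of Cplx2 to Cplx1 on FPKM was 1.12, 55.2 and 0.921 in control and 6.31, 0.985 and 1.27 in PS_high, which follows the low Cplx1 libraries. In control 2 and PS_high 1 Cplx2 itself was at 622.1 and 507.2 CPM.

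Most Cplx2 counts came from the assembled isoform MSTRG.10258.3 (5072 bases), which starts 2 bases downstream of the RefSeq start and held 72.34% to 86.96% in the 6 libraries. MSTRG.10258.2 (5151 bases), which starts upstream, at base -521 relative to that start, had 1242, 2297 and 932 counts in the controls and 2690, 4354 and 3862 in PS_high. Its share was 4.655%, 7.363% and 2.589% in control and 11.36%, 16.22% and 10.93% in PS_high, higher in every PS_high library. The log2 fold change was 1.44 (SE 0.46), with an unadjusted p of 0.0248 and an adjusted p of 1 in edgeR, and groups that did not overlap in this direction were found for 2011 of all isoforms tested (3.98%). The annotated isoform ENSMUST00000026985 (4928 bases), which starts 68793 bases downstream, had 3565, 6333 and 3762 counts in the controls and 1427, 603 and 5160 in PS_high, with overlapping groups.

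**Figure D4:**
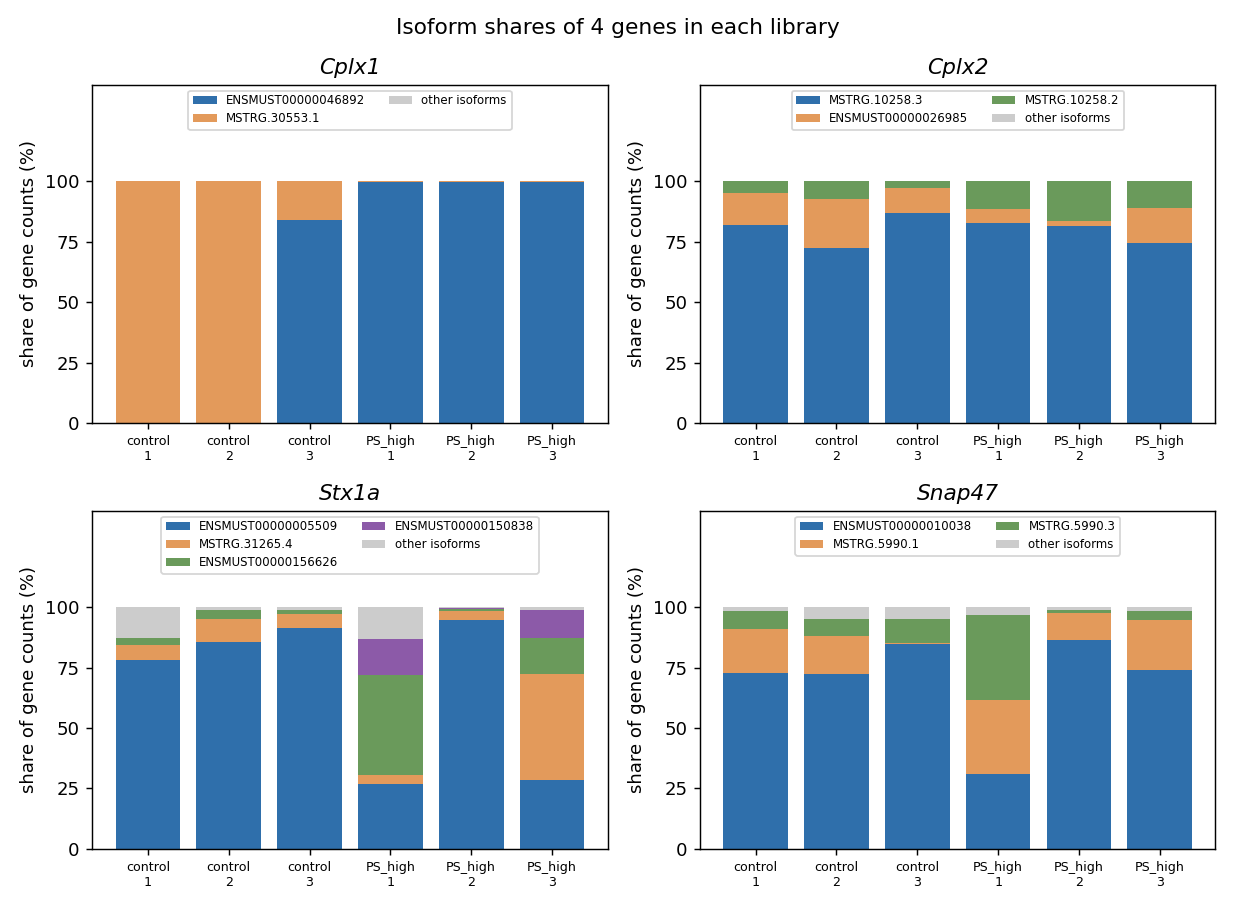
Share of each gene's counts (in percent) held by the named isoforms of Cplx1, Cplx2, Stx1a and Snap47 in each of the 6 libraries, with all remaining isoforms in grey. Cplx1 passes from MSTRG.30553.1 (orange) in control 1 and control 2 to ENSMUST00000046892 (blue) in the other 4 libraries, and the leading isoforms of Stx1a and Snap47 lose share in PS_high 1.

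Over the 8 genes together, 0 of the 40 isoforms tested passed in edgeR, as did 0 of all 50548 isoforms (0%). At an unadjusted p under 0.05 there were 4 of the 40, against 1620 of all isoforms (3.2%), and these were MSTRG.30553.1 of Cplx1, MSTRG.10258.2 of Cplx2, ENSMUST00000150838 of Stx1a and a minor Snap47 isoform, ENSMUST00000156146 (log2 fold change -1.89, SE 0.71, p of 0.0425), which was named after its values were seen. DESeq2 called 2 of the 40, against 1211 of all isoforms (2.4%). It gave no adjusted p for some of the 40, so these were not assessed. Among them were ENSMUST00000046892 of Cplx1 and the Snap25 isoforms MSTRG.22897.2, MSTRG.22897.4 and MSTRG.22897.5. Limma on log2(FPKM + 0.1) called 0, against 21 of all isoforms (0.0415%). Groups did not overlap for 3 of the 40, against 4239 of all isoforms (8.39%).

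How far isoform makeup differed between libraries was set side by side for the 8 genes as the percentage of a gene's counts that would have to move to another isoform to turn 1 library's shares into another's, averaged over pairs of libraries. For Snap25 it was 50.22% within control, 91.01% within PS_high and 81.19% between the groups, so the PS_high libraries differed from each other at least as much as from control. Of 6940 genes with at least 1000 mean counts and at least 2 isoforms, 98.96% had less movement within groups than Snap25. Cplx1 had 56.08% within control, 0.07113% within PS_high and 71.89% between the groups. Stx1a (10.36%, 58.53% and 44.2%) and Snap47 (12.99%, 37.27% and 23.91%) moved most within PS_high. The remaining genes stayed below the median of the 6940 genes (17.5%, 19.35% and 21.55%), with 0.2683% between the groups for Vamp2, 2.621% for Syt1, 5.198% for Vamp1 and 11.04% for Cplx2.

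Circular RNAs of the 8 genes were few. Of 17369 circRNAs, 20 came from these genes: 13 from Syt1, 5 from Snap47 and 2 from Snap25. The Syt1 circles together had 11, 15 and 19 back-splice reads in control and 19, 3 and 6 in PS_high, those of Snap47 had 3, 2 and 6 against 0, 2 and 2, and those of Snap25 had 2, 0 and 0 against 0, 2 and 0. The groups overlapped for all 3 hosts. Some circles are listed more than once with a start that differs by 1 base, so their reads may be split.

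In edgeR 0 of the 5 circles tested passed, against 2 of all 3275 circRNAs tested (0.0611%), and 0 of the 5 had an unadjusted p under 0.05, against 157 of all (4.79%). The Syt1 circle with the most reads, mmu_circ_0001939 (5 exons, 108627253 to 108691063), had 1, 5 and 5 reads in control and 4, 1 and 3 in PS_high. A single-exon Syt1 circle, circRNA916 (108690884 to 108691063), named after its values were seen, had 7, 4 and 4 reads in control and 1, 0 and 1 in PS_high. Its log2 fold change was -2.52 (SE 1.51), with an adjusted p of 0.975 in edgeR. The leading circle of Snap47, mmu_circ_0003155, had 1, 2 and 4 reads in control and 0, 2 and 0 in PS_high. At such depths, differences of a few reads could not be resolved.

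Among the other genes of the exocytosis pathway no call was made. Of 54 genes on 5 lists, 53 had isoforms to sum under their symbol and 52 were tested (not tested were Vamp7 and Cplx4). Of the 52, 0 passed in edgeR, DESeq2 or limma in either direction. In edgeR 27 lay above 0 and 25 below, with a median log2 fold change of 0.0, beside -0.007 for all genes tested. At an unadjusted p under 0.05 there were 2 of the 52, 1 of which was Syt2. Syt2, the calcium sensor of fast brain stem synapses and of some interneurons, was at 61.53, 40.68 and 8.802 CPM in control and at 9.293, 10.81 and 15.53 CPM in PS_high (log2 fold change -1.64, SE 0.65, edgeR p of 0.0418 unadjusted and 1 adjusted), so control 3 was lower than all PS_high libraries, and on FPKM its log2 fold change was -0.48 in limma.

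Among the other exocytic and plasma membrane SNAREs, 2 of 9 tested genes lay above 0 and 7 below, with a median of -0.11, and Vamp4, a SNARE of the endosomal route, was at 0.01 (SE 0.16). Of the SM proteins, priming factors and SNARE regulators, 12 of 18 lay above 0, with a median of 0.07. In that list the dense-core vesicle priming factor Cadps had 0.13 (SE 0.14) and the vesicle priming factor Unc13a -0.42 (SE 0.22), both log2 fold changes with an adjusted p of 1 in edgeR. The proteins that take used SNARE complexes apart were also without a call, with Nsf at 0.1 (SE 0.14) and Napg at 0.32 (SE 0.37). Napg read 241.4, 85.0 and 245.5 CPM in control and 242.1, 224.7 and 244.8 CPM in PS_high, so control 2 was low for this gene as it was for Cplx1. Of the other synaptotagmins, Doc2 and Rab3 effectors, 9 of 20 lay above 0, with a median of -0.01, Syt11 at 0.15 (SE 0.13) and the vesicle GTPase gene Rab3a at -0.02 (SE 0.24). Cplx3, a complexin of ribbon synapses that is also found in cortex, was at 0.06 (SE 0.23).

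**Figure D5:**
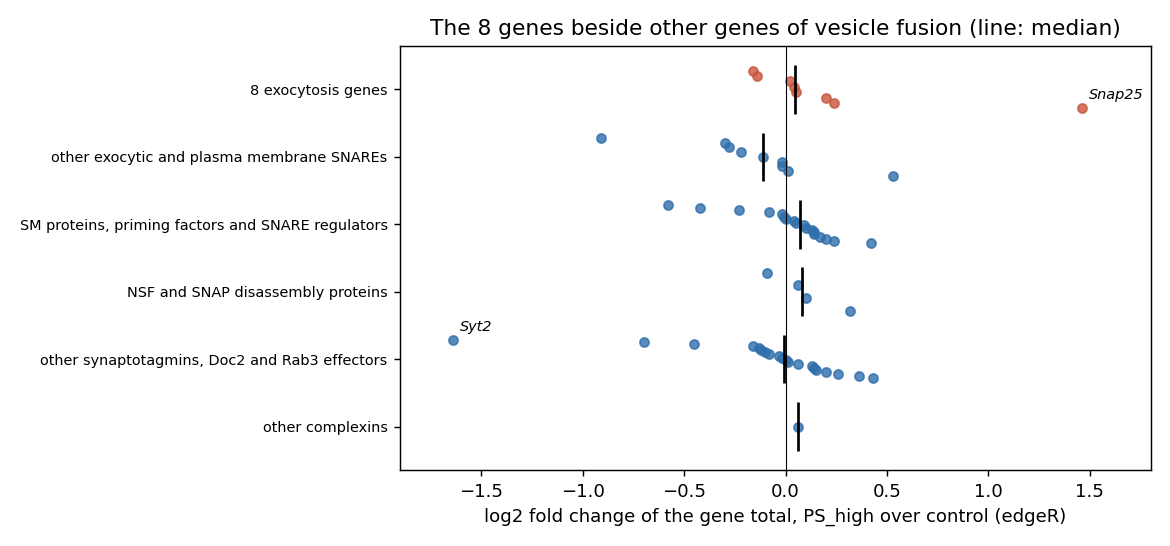
Log2 fold change of PS_high over control in edgeR for each tested gene, with the 8 genes in red and 5 lists of other exocytosis genes in blue, and a short bar at each median. Snap25 (1.46) and Syt2 (-1.64) are labelled, and the medians of the lists lie between -0.11 and 0.08.

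The genes whose CPM profile over the 6 libraries was most like that of Snap25 were Gm10419, Nrbf2, RPS10-NUDT3, 8430429K09Rik and Fam49a. Likeness was the root mean square difference between log2(CPM + 1) profiles, each centred on its mean, and it was 0.251 for Gm10419 and 0.307 for Fam49a, the first and the last of these. Fam49a read 166.6, 142.7 and 159.8 CPM in control and 254.5, 353.2 and 351.1 CPM in PS_high. Because the genes were picked for nearness to a profile that is higher in PS_high, their own higher values there follow from the choice. The Snap25 profile used is the total over all isoforms, which rests on the assembled isoforms described above. Whether these genes are linked to Snap25 was not tested. By this measure over 18195 genes, the nearest of the other 7 exocytosis genes was Snap47, at rank 977 (0.666), followed by Syt1 at rank 1368 and Vamp2 at rank 3653, and Cplx1 was the farthest, at rank 18149 (1.94).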

How the data were processed

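Gene totals, isoforms and circRNAs were compared between 3 control and 3 PS_high libraries. HISAT2, StringTie and TopHat are the tools in the submitters' processing notes; their versions and the genome build were not given in sources used here. RefSeq's GRCm38.p6 annotation placed 792 of 917 shared small nuclear RNA genes at the positions of the table. The deposited linear table gives FPKM and an estimated count for each isoform, and a read that fits several isoforms is divided among them. Isoforms over 200 counts had counts equal to FPKM times length times 1 constant per library, within 1%. The deposited circRNA table gives back-splice read counts and a deposited signal, SRPBM, which is that count scaled to 1 total per library.

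Counts and FPKM were summed per gene over class codes =, j, c, o and e. Features whose mean reached 0.5 FPKM were tested with edgeR 4.0.16 (R 4.3.3; TMM, robust quasi-likelihood fit, two-sided, Benjamini-Hochberg adjustment over all features tested, threshold 0.05). CPM were scaled with the TMM factors. FPKM were tested with limma 3.58.1 on log2(FPKM + 0.1), so its fold changes understate those of low genes. CircRNAs seen in 3 or more of the 6 libraries were tested in edgeR with the totals behind SRPBM as library sizes. DESeq2 1.42.0, other scalings, filters and ways of summing, and leaving out each library were tried as alternatives. The count fits were tested on simulated data, where edgeR recovered 52% of genes changed 2-fold and 99% of genes changed 4-fold. All genes had the same spread there, so these rates do not hold for genes that varied more, such as Cplx1.

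The 8 genes, the other gene lists and the marker lists were chosen with earlier results of these data known. Isoforms were named if they held at least 10% of a gene's counts in any library, at most 4 per gene by mean count, or passed the threshold. Other exocytosis genes were named if they passed, if they were among the 2 with the highest mean FPKM of their list, or if they had its smallest p. Some genes that this rule names are not reported here. The 5 genes most like Snap25 exclude pseudogenes, and of the circRNAs the 1 with the most reads per host was named. The labels do not say that samples came from separate animals, so p-values measure the spread between these samples, which may be technical. Read counts without molecular identifiers are not independent molecules.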

Additional observations from a re-analysis of the deposited data

How the results depend on the processing

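In edgeR the number of the 8 genes past the threshold was 0 with every scaling, filter, way of summing and left-out library that was tried (range 0 to 0 over left-out libraries), and DESeq2 gave 1, Snap25. For the isoforms of these genes edgeR and limma gave 0 in every setting. DESeq2, which had no adjusted p for some of them, gave 2. FPKM totals, circRNAs and the other exocytosis genes had 0 calls in every setting run. The Snap25 gene total kept its direction when any 1 library was left out (log2 fold change 1.29 to 1.61, adjusted p 0.138 to 0.454 in edgeR).

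With annotated isoforms only, the log2 fold change turned to -0.41 for Snap25 (FPKM -0.39), -0.01 for Snap47 (FPKM -0.2) and -0.86 for Cplx2, which follows from leaving out their assembled isoforms. When each gene was taken from its most abundant isoform, Cplx2 was at -0.01, and for Snap25 that isoform (MSTRG.22897.4) is at 0 in every control, so no fold is given. Leaving out 1 library at a time turned gene totals near 0 in counts for Stx1a (-0.27 to 0.04), Vamp2 (-0.06 to 0.15; FPKM -0.06 to 0.15), Cplx1 (-0.52 to 0.73; FPKM -0.96 to 2.0) and Cplx2 (-0.1 to 0.14; FPKM -0.16 to 0.16). The same held for Vamp4 (-0.15 to 0.08), Napg (-0.04 to 0.54), Rab3a (-0.18 to 0.2) and Cplx3 (-0.08 to 0.17). Among isoforms it held for MSTRG.10258.3 (-0.09 to 0.15), MSTRG.22897.6 (-4.31 to 2.39), ENSMUST00000010038 (-0.26 to 0.42), MSTRG.5990.3 (-1.29 to 1.25), MSTRG.31265.4 (-1.08 to 1.79), ENSMUST00000100942 (-0.3 to 0.19) and ENSMUST00000021273 (-0.06 to 0.18). The Snap25 isoforms seen in 1 library fell to 0.0 without that library (0.0 to 18.14 for MSTRG.22897.4, 0.0 to 17.27 for MSTRG.22897.2 and 0.0 to 17.31 for MSTRG.22897.5). Limma on log2 FPKM gave -0.21 for ENSMUST00000010038, -0.29 for MSTRG.5990.3 and 0.02 for ENSMUST00000100942. Apart from these constructions, the cause of a turned sign was not tested.

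Samples with the same replicate number correlated by 0.155, 0.0893 and 0.0598 in their deviations from the group means, so the numbers were not taken to pair the samples, although every sample correlated best with its own number, a hint from the data and not the design. With replicate number as a block edgeR called 0 genes (650 at an unadjusted p under 0.05, against 530 without it) and 0 of the 8, with Snap25 at 1.46 (adjusted p 0.242). The block turned the log2 fold change of ENSMUST00000010038 to -0.17, of MSTRG.5990.3 to -0.39, of ENSMUST00000100942 to 0.04 and of Vamp4 to -0.01. In simulated data with these library sizes edgeR recovered 35% of isoforms changed 2-fold and 97% changed 4-fold, and 37% and 95% of circRNAs. The changed features were drawn above a minimum mean count that the circles of the 8 genes did not reach. All features were also given the same spread. The rates therefore do not hold for those circles, or for genes and isoforms that varied more between libraries.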

Other observations

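Transcripts inside introns of Syt1 on the opposite strand, which were left out of its gene total, had 54816, 34127 and 33101 estimated counts in the controls and 51376, 28766 and 35828 in PS_high, so control 1 and PS_high 1 were the highest and the groups overlapped. A further opposite-strand transcript that overlaps exons of Syt1, MSTRG.4632.1, had 3103, 2893 and 2605 counts in the controls and 3160, 2624 and 2489 in PS_high. For Cplx2, a transcript listed near the gene but outside it, MSTRG.10257.1, had 849, 1621 and 1318 counts in the controls and 763, 1053 and 1427 in PS_high.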
